A study of Mus musculus with 12 samples.

Results

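The translation initiation factor genes were the rows of a mouse RNA-seq count table whose symbol begins with Eif and a digit from 1 to 6. Of 60 such rows, 7 pseudogenes were left out and 0 fell under the minimum of 10 reads summed over the 12 libraries, which left 53 genes of the 25189 in the table. The member with the fewest reads was Eif4ebp3 with 19. It was also the 1 member that did not pass the low-count filter of the test, so that 52 of the 53 were tested. The members comprised 7 genes of start-codon scanning and subunit joining (eIF1, eIF1A, eIF5 and eIF5B). There were also 5 genes of eIF2 and of other carriers of the initiator tRNA, 5 eIF2B subunits and 4 eIF2α kinases. The rest were 14 eIF3 subunits, 11 genes of eIF4F, its helpers and relatives, 4 proteins that bind eIF4E, and 3 eIF5A and eIF6 genes.

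Translation initiation factors load the initiator tRNA and the mRNA onto the small ribosomal subunit and find the start codon. eIF2 brings the initiator tRNA as a GTP-bound complex, its exchange factor eIF2B recharges it, and stress kinases phosphorylate its α subunit and thereby slow general translation. eIF3 is the large scaffold on the small subunit, and eIF4F binds the mRNA cap through eIF4E, unwinds the leader with the helicase eIF4A and bridges to eIF3 through eIF4G. The 4E-binding proteins sequester eIF4E until mTOR complex 1 phosphorylates them, and growth and metabolic reprogramming of activated T cells go with a rise in protein synthesis.

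RNA was sequenced from regulatory T (Treg) cells, CD4 T cells that restrain immune responses, double-sorted from the spleens of 4-week-old female mice, with 4 libraries in each of 3 groups. Double-deficient cells (labelled Foxp3-deficient Rictor-deficient, genotype Foxp3ΔEGFPiCre Rictor Δ/Δ) lacked both Foxp3, the lineage transcription factor of Treg cells, and Rictor, the subunit that defines mTOR complex 2. Foxp3-deficient cells (genotype Foxp3ΔEGFPiCre) carried the Foxp3 allele with the EGFP and Cre insertion, and WT cells carried Foxp3RFP, a working Foxp3 with a red reporter. The protocol text names heterozygous mice, Foxp3ΔEGFPiCre/RFP R26YFP and Foxp3ΔEGFPiCre/+ Rictor Δ/Δ R26YFP. In them Cre is driven from the Foxp3 locus and switches on a yellow reporter. Cells were gated as CD4+RFP+ or CD4+YFP+. In comparisons with WT cells, which carry the red reporter, genotype and reporter colour therefore cannot be told apart. Only the second of the mice named carries the Rictor deletion. Between double-deficient and Foxp3-deficient cells, the genotype of the cells and that of the mouse therefore cannot be told apart. No label ties a library to a mouse or says whether RNA was pooled or groups shared mice, so p-values reflect only the spread between these libraries, which may be technical. A group name followed by a number is a replicate as the labels number it (2 to 5 in double-deficient cells, and 1, 3, 4 and 5 in the other groups).

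Libraries held between 15769737 and 26114044 reads assigned to genes. Foxp3 averaged 102 ± 13.6 CPM in double-deficient, 118 ± 22.8 in Foxp3-deficient and 632 ± 75.7 in WT cells (CPM, read counts relative to the total assigned to genes, scaled by TMM as described under processing; mean ± SD, n = 4). Rictor averaged 141 ± 12.6 CPM in double-deficient, 189 ± 31.2 in Foxp3-deficient and 148 ± 14.4 in WT cells. The counts cover all exons and the deleted part of Rictor is not given in the sources used here, so its count does not check the label. Cd4 averaged 866 ± 94 CPM in double-deficient, 1080 ± 168 in Foxp3-deficient and 756 ± 20.2 in WT cells. Of the 7 Treg and T cell markers, 3 were called lower, Foxp3 among them, and 1 higher against WT in each other group. Of all genes, 16.8% fell and 15.8% rose in double-deficient, and 6.74% fell and 6.99% rose in Foxp3-deficient cells. In double-deficient against Foxp3-deficient cells 2 of the 7 rose and 1 fell, where 13.9% and 13.3% of all genes did. The summed level of the 5 myeloid markers reached at most 1.76 CPM in any library. The share of reads without a unique alignment ran from 31.1% to 33.1% in double-deficient, 23% to 29.5% in Foxp3-deficient and 25.9% to 28.5% in WT libraries, so it separated the double-deficient libraries from the rest, and Foxp3-deficient 1 had the lowest share of all. Fewer cells of a kind and less RNA per cell cannot be told apart in bulk samples.

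Promoter windows were available for 42 of the 53 members, from RefSeq on GRCm38.p6. Those without a window include Eif1a, Eif3e, Eif3h, Eif3i, Eif4ebp1 and Eif6, all called higher in double-deficient against Foxp3-deficient cells. The CACGTG E-box, a motif bound by Myc-family and related factors, was searched on both strands. It was present in 10 of the 42 members (23.8%), against 8.09% of all 27025 genes with a window, which were not limited to expressed genes. In this and the other motif counts, a gene with several windows counted if any of them matched. The searched windows reach further past the start than the printed ones. The 10 were Eif1b, Eif3a, Eif3f, Eif3k, Eif4a1, Eif4e, Eif4g1, Eif4h, Eif5a and Eif5a2. Among them are 3 genes called higher in double-deficient against Foxp3-deficient cells (Eif3k, Eif4e and Eif5a) and 1 called lower (Eif4g1). Of all genes, 13.9% were called higher and 13.3% lower. These 4 windows are printed because the same letters stand in the windows of genes called in opposite directions. With each library's trend on transcript length and GC content removed, Eif4g1 was not called (log2 fold change -0.11, edgeR adjusted p = 0.194). The call of Eif4e was lost in 11 of 19 alternative settings. The fifth sequence is that of Eif2ak2, the member with the largest fold change, which holds the core of an interferon-stimulated response element, a pair of GAAA words with any 2 bases between them. That motif was picked after the values were seen and was present in 4 of the 42 members (Eif2s1, Eif2s3x, Eif2ak2 and Eif3a; 9.52%), against 3.99% of all genes. Each window runs 5′ to 3′ on the gene's own strand from 250 bases before the annotated start to 30 bases from it, and capitals mark the motif. The second match in Eif4g1 and the match in Eif2ak2 lie after the annotated start. The windows are Eif5a at chr11:69921357-69921636 (minus strand), Eif3k at chr7:28981859-28982138 (minus), Eif4e at chr3:138527018-138527297 (plus), Eif4g1 at chr16:20672477-20672756 (plus) and Eif2ak2 at chr17:78882543-78882822 (minus).
Eif5a: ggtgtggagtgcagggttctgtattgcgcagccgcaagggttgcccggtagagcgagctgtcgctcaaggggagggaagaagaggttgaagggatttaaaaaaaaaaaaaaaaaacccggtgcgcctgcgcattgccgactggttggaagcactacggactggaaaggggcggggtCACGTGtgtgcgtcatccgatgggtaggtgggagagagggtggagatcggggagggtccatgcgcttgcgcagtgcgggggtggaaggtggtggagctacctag
Eif3k: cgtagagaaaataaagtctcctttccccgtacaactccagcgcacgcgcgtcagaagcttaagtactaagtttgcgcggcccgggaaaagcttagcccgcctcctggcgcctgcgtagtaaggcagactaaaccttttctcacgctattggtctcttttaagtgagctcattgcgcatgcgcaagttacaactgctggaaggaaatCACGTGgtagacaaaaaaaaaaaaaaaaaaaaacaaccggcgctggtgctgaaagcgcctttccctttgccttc
Eif4e: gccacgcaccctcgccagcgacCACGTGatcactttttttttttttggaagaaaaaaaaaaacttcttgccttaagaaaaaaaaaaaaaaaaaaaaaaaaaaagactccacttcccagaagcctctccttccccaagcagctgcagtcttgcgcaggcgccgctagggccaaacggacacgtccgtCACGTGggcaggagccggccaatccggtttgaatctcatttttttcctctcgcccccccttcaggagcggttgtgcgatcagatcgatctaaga
Eif4g1: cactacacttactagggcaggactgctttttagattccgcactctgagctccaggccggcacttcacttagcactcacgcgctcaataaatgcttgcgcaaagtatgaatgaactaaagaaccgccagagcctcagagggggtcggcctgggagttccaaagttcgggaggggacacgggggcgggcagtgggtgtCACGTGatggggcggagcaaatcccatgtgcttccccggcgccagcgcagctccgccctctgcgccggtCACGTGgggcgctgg
Eif2ak2: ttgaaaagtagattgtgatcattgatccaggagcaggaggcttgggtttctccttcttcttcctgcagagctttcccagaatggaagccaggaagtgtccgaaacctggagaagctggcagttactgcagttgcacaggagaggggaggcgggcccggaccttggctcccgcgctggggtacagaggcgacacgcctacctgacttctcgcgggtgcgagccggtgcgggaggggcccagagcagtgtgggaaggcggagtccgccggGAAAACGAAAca

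Other motifs were sparse in the members' windows. The cyclic AMP response element TGACGTCA was found in 0 of 42, against 2.03% of all genes. The ATF4 element TGATGNAA was found in 1 of 42 (2.38%), against 4.51%. A C at the annotated start followed by at least 4 pyrimidines, the pattern of terminal oligopyrimidine mRNAs, was found on the sense strand in 2 of 42 (Eif2s3x and Eif3f; 4.76%), against 3.01%. No printed window held both the E-box and the interferon-stimulated response element core, and a match is a description of these letters only.

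The members spanned a wide range of levels. Per kilobase of the principal transcript, and averaged over the 12 libraries, Eif5a stood highest at 605 CPM per kb. Eif1, the start-codon fidelity factor, reached 209, the eIF3 subunit gene Eif3g 171, the helicase helper Eif4h 167 and the eIF3 subunit gene Eif3b 150 CPM per kb. At the low end were Eif4ebp3 at 0.101, Eif3j2 at 0.27 and Eif2s3x, which encodes the γ subunit of eIF2, at 0.844 CPM per kb. Eif2s3x had 746 reads in all, far from the level of its partner subunit genes Eif2s1 (42.6 CPM per kb) and Eif2s2 (14.7), and the X-linked gene has close copies to which reads may also align. Eif4g2 is left out of this order because its annotated transcripts differ widely in length.

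Initiation factor transcripts were higher more often than lower in double-deficient cells, and none was called in Foxp3-deficient against WT cells. Against Foxp3-deficient cells, 14 of the 52 tested members rose (26.9%) and 4 fell (7.69%) in double-deficient cells, where 13.9% of all 13196 tested genes rose, 13.3% fell and 27.2% were called either way. Against WT cells, 14 rose and 4 fell as well, where 15.8% of all genes rose, 16.8% fell and 32.6% were called either way. Leaving out 1 library at a time gave 6 to 12 higher and 2 to 5 lower in that comparison, with the fewest higher without WT 4 (6), WT 1 (7) or WT 3 (9), and 2 lower without WT 1, WT 3, WT 4 or double-deficient 5. Against Foxp3-deficient cells it gave 9 higher without double-deficient 3, and 1 lower without double-deficient 5 or 2 without Foxp3-deficient 1. The share of all genes called in these fits is not given, so these counts do not set the members apart from other genes. The median log2 fold change of the members was 0.07 in double-deficient against Foxp3-deficient cells and -0.02 over all genes. In double-deficient against WT cells it was 0.18 for the members and -0.03 over all genes. The libraries of the groups compared did not overlap for 16 members in double-deficient against Foxp3-deficient cells (30.8%, against 25.0% of all genes) and for 30 members in double-deficient against WT cells (57.7%, against 39.7%). Both comparisons share the 4 double-deficient libraries. A gene was called where its adjusted p in edgeR's quasi-likelihood test was under 0.05, and log2 fold changes are given ± SE. The plot of log2 fold changes shows every tested member in the 3 comparisons.

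**Figure D1:**
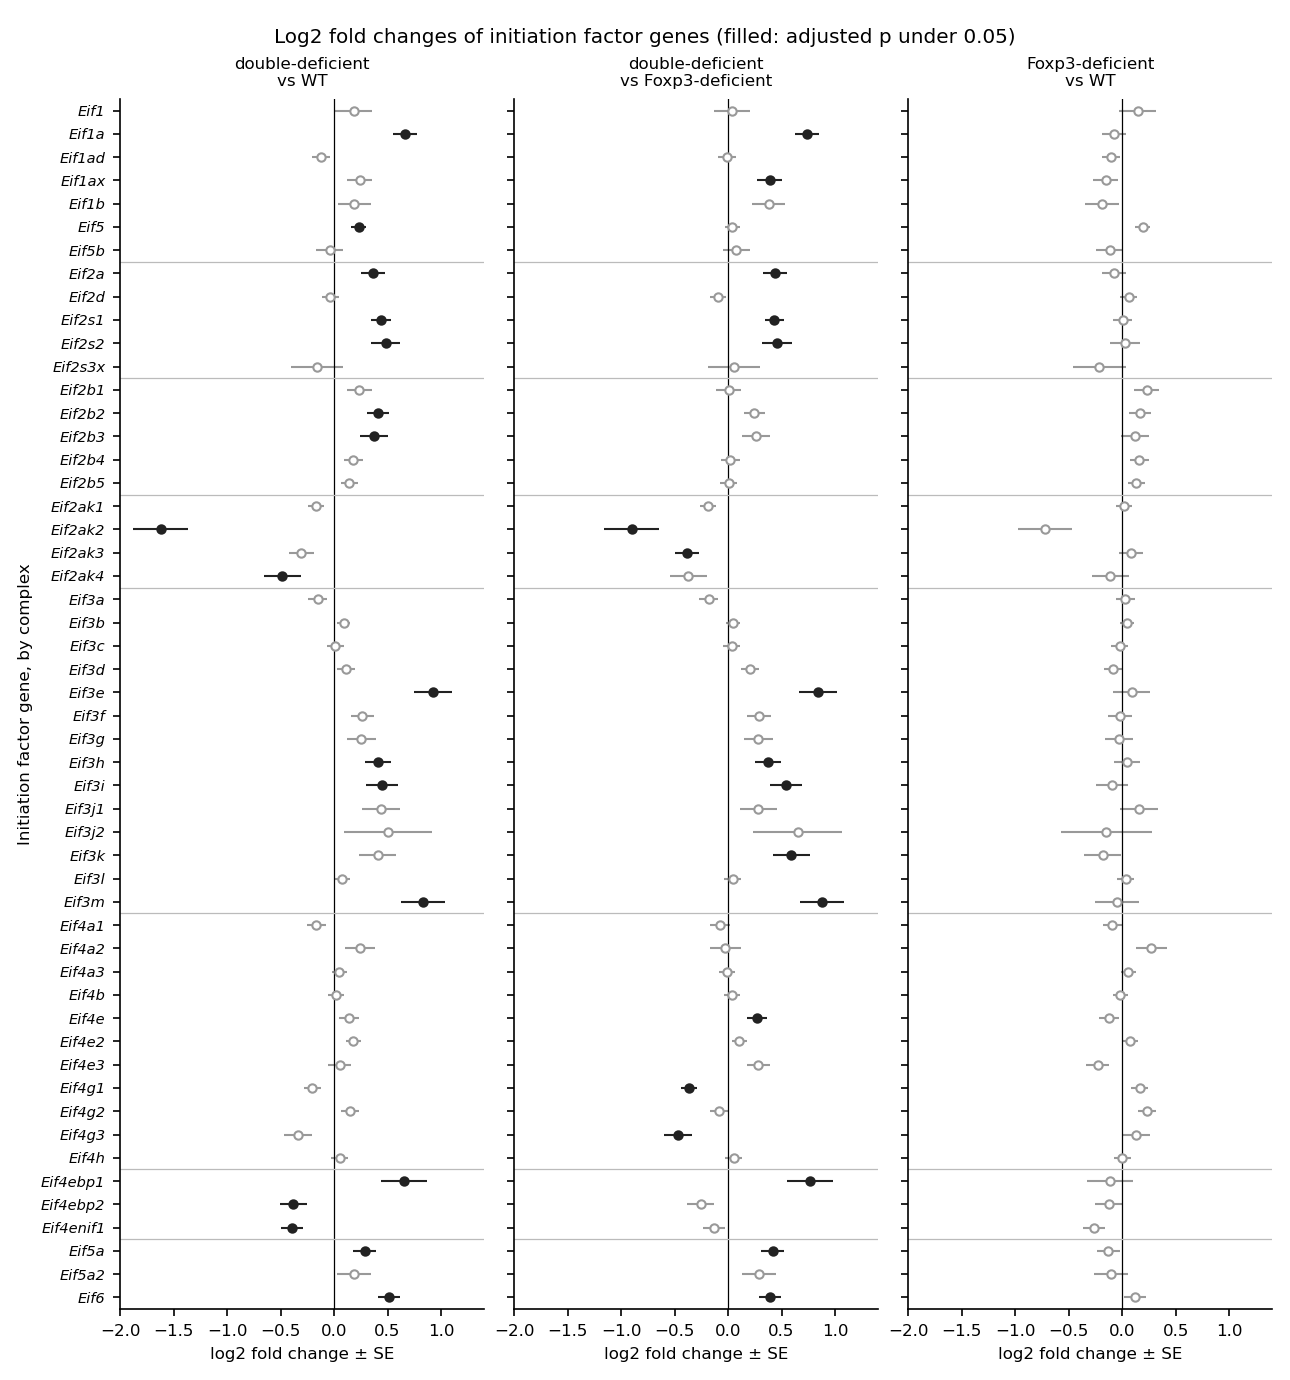
Log2 fold change (x axis, ± SE from the edgeR fit of 4 libraries a group) of the 52 tested initiation factor genes (y axis, ordered by complex and separated by grey lines) in double-deficient against WT, double-deficient against Foxp3-deficient, and Foxp3-deficient against WT cells. Filled points passed an adjusted p under 0.05, which 18 members did in each of the first 2 panels and 0 in the third, and Eif2ak2 lies farthest left in every panel.

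Of the 5 genes of eIF2 and of other carriers of the initiator tRNA, 3 rose in double-deficient cells in both comparisons. Of all genes, 13.9% rose against Foxp3-deficient and 15.8% against WT cells. Eif2s1, which encodes the α subunit that the stress kinases phosphorylate, had 167, 177, 175 and 184 CPM in double-deficient libraries, 108, 134, 138 and 140 CPM in Foxp3-deficient and 121, 130, 123 and 144 CPM in WT. Every double-deficient library lay above every other library. The log2 fold change was 0.43 ± 0.0895 against Foxp3-deficient (edgeR adjusted p = 0.00361) and 0.44 ± 0.0895 against WT cells (adjusted p = 0.00189). Eif2s2, the β subunit gene, had 39.7, 47.4, 45.5 and 50.7 CPM in double-deficient, 25.6, 38.6, 33.6 and 36 CPM in Foxp3-deficient and 29.8, 34.1, 28.3 and 39.1 CPM in WT libraries. The lowest double-deficient library was just above the highest of the others. Its log2 fold changes were 0.46 ± 0.138 against Foxp3-deficient (edgeR adjusted p = 0.025) and 0.48 ± 0.138 against WT cells (adjusted p = 0.0154). Eif2a, which encodes an alternative initiator tRNA carrier, had 44.1, 46.8, 39.7 and 48.9 CPM in double-deficient, 30.2, 39.8, 28.8 and 33.9 CPM in Foxp3-deficient and 36.3, 35.1, 34.9 and 33.5 CPM in WT libraries, with an overlap of the first 2 groups at 1 library each. Its log2 fold changes were 0.44 ± 0.112 (edgeR adjusted p = 0.0119) and 0.36 ± 0.112 (adjusted p = 0.0226). Eif2s3x was called in neither comparison, at 2.99 ± 0.717 CPM in double-deficient, 2.89 ± 0.347 in Foxp3-deficient and 3.35 ± 0.649 in WT cells. The call of Eif2s2 against Foxp3-deficient cells was lost without any of Foxp3-deficient 1 or 4 or double-deficient 3 or 5, and against WT cells without WT 1 or 4, while that of Eif2a against WT cells was lost without any of WT 3, 4 or 5 or double-deficient 3 or 5 (log2 fold changes 0.35 to 0.53, 0.41 to 0.58 and 0.32 to 0.42).

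The 5 eIF2B subunit genes, which encode the exchange factor of eIF2, all had positive log2 fold changes in double-deficient against WT cells, between 0.14 and 0.41, and the libraries of the 2 groups overlapped in 0 of the 5, where 39.7% of all genes did not overlap. Of the 5, Eif2b2 and Eif2b3 passed the test as higher, where 15.8% of all genes rose. Eif2b2 had 101, 111, 106 and 109 CPM in double-deficient, 70.9, 104, 94.3 and 92.5 CPM in Foxp3-deficient and 84.6, 76.2, 81.3 and 80.2 CPM in WT libraries. The Foxp3-deficient libraries overlapped both other groups. Its log2 fold change was 0.41 ± 0.0995 against WT (edgeR adjusted p = 0.00604) and 0.24 ± 0.0993 against Foxp3-deficient cells (adjusted p = 0.0797). Eif2b3 averaged 38.8 ± 6.3 CPM in double-deficient, 32.4 ± 4.92 in Foxp3-deficient and 29.9 ± 1.51 in WT cells, a log2 fold change against WT of 0.38 ± 0.131 (edgeR adjusted p = 0.0381) that lost its call without any of the 4 WT libraries or double-deficient 4 or 5 (0.27 to 0.46). In double-deficient against Foxp3-deficient cells 0 of the 5 passed, where 27.2% of all genes were called either way.

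Of the 4 eIF2α kinase genes, 2 fell and 0 rose in each comparison, where 13.3% of all genes fell against Foxp3-deficient and 16.8% against WT cells. Eif2ak2 encodes PKR, the kinase activated by double-stranded RNA, and lies at chr17:78852564-78882573. It had 17.8, 17.8, 9.87 and 7.22 CPM in double-deficient libraries, 32.3, 17.2, 25.2 and 23.8 CPM in Foxp3-deficient and 45.6, 36, 46.1 and 34.6 CPM in WT. All WT libraries were above all others, and Foxp3-deficient 3 overlapped the double-deficient group. Eif2ak2 fell by 1.62 ± 0.258 on the log2 scale against WT cells (a 3.07-fold difference; edgeR adjusted p = 0.000333) and by 0.90 ± 0.257 against Foxp3-deficient cells (adjusted p = 0.0196). The call against Foxp3-deficient cells was lost without Foxp3-deficient 1, double-deficient 4 or double-deficient 5 (-1.08 to -0.69). Eif2ak3, the gene of the endoplasmic reticulum stress kinase PERK, averaged 36.4 ± 5.61 CPM in double-deficient, 47.6 ± 4.59 in Foxp3-deficient and 45 ± 2.38 in WT cells, and fell against Foxp3-deficient cells by 0.39 ± 0.115 (edgeR adjusted p = 0.0228). Eif2ak4, the gene of the amino acid sensor GCN2, averaged 19.2 ± 4.12 CPM in double-deficient, 24.9 ± 4.99 in Foxp3-deficient and 26.9 ± 3.59 in WT cells, and fell against WT cells by 0.49 ± 0.174 (adjusted p = 0.0429). Both lost their call on leaving out single libraries: Eif2ak3 without Foxp3-deficient 4 or double-deficient 3 or 5 (-0.48 to -0.30), and Eif2ak4 without WT 1, 3 or 4 or double-deficient 2, 3 or 5 (-0.63 to -0.37). Eif2ak1, the gene of the heme-regulated kinase and the most abundant of the 4 per length, had a log2 fold change of -0.18 ± 0.0747 against Foxp3-deficient (adjusted p = 0.0776) and -0.17 ± 0.0747 against WT cells (adjusted p = 0.0902), with no overlap in either comparison. With the length and GC trend removed these values were -0.04 and 0.01. Summed, the kinase genes gave 187 ± 7.01 CPM in double-deficient, 231 ± 15.4 in Foxp3-deficient and 245 ± 17.6 in WT cells.

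**Figure D2:**
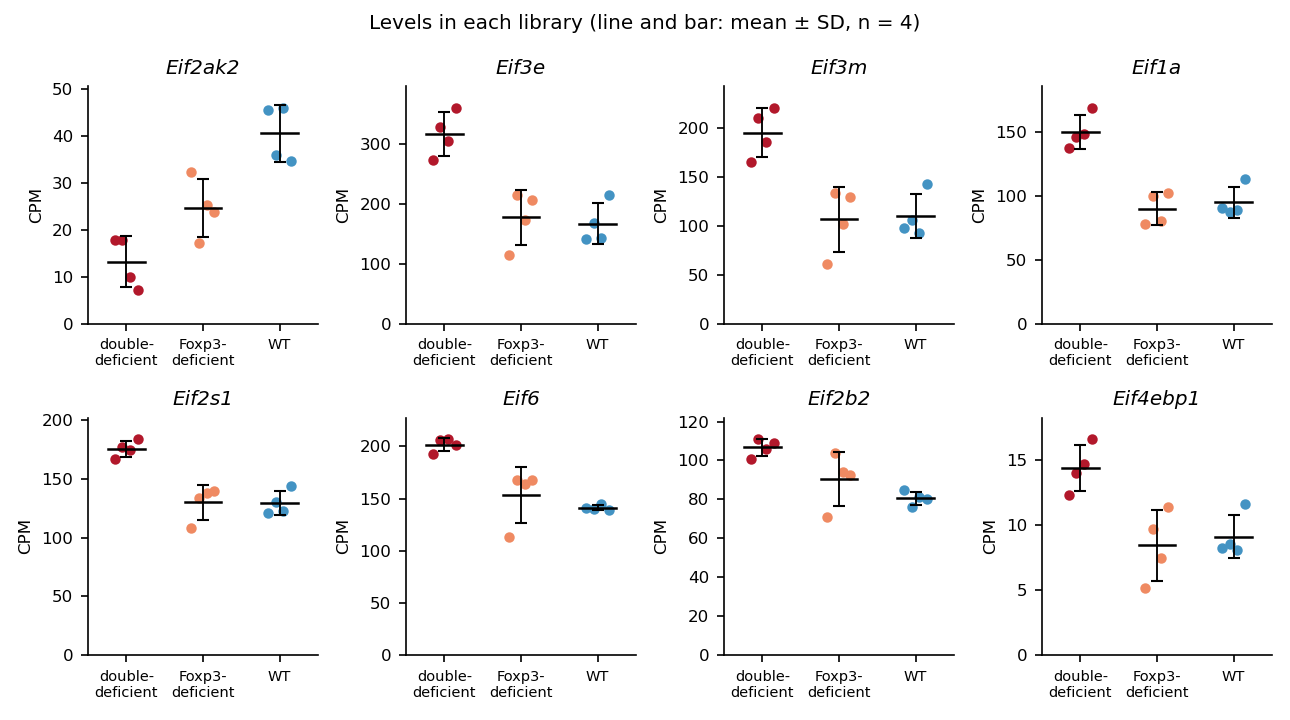
CPM (y axis, from 0) of 8 initiation factor genes in the 4 double-deficient, 4 Foxp3-deficient and 4 WT libraries, with the mean as a line and the SD as a bar. Eif2ak2 lies between 7.22 and 17.8 CPM in double-deficient cells, below every WT library, and the other 7 genes lie higher in every double-deficient than in every WT library.

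The eIF3 subunit genes rose in 5 of 14 members against Foxp3-deficient and in 4 of 14 against WT cells, and 0 fell, where 13.9% and 15.8% of all genes rose (26% and 18.2% of those with transcripts under 1520 bases). Eif3e, at chr15:43250058-43282719, had 273, 327, 304 and 360 CPM in double-deficient, 114, 215, 173 and 206 CPM in Foxp3-deficient and 141, 168, 143 and 214 CPM in WT libraries. Double-deficient libraries were all above the others. Its log2 fold change was 0.84 ± 0.178 against Foxp3-deficient (edgeR adjusted p = 0.00492) and 0.92 ± 0.178 against WT cells (adjusted p = 0.00154). Processed pseudogenes of Eif3e are rows of their own in the table, so reads could be divided between copies and its level is uncertain to that extent. Eif3m, another eIF3 subunit gene, had 165, 210, 186 and 221 CPM in double-deficient, 61.4, 134, 102 and 129 CPM in Foxp3-deficient and 97.8, 106, 92.5 and 143 CPM in WT libraries, again without overlap. Its log2 fold changes were 0.88 ± 0.207 (edgeR adjusted p = 0.00904) and 0.83 ± 0.207 (adjusted p = 0.00843). 

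Eif3i, the gene of a subunit that binds eIF3b, had 113, 126, 128 and 137 CPM in double-deficient, 54.9, 96.9, 92 and 103 CPM in Foxp3-deficient and 86.4, 92.8, 86 and 104 CPM in WT libraries. The double-deficient libraries did not overlap the others, with log2 fold changes of 0.54 ± 0.149 against Foxp3-deficient (edgeR adjusted p = 0.0165) and 0.45 ± 0.149 against WT cells (adjusted p = 0.0316). Eif3h had 179, 198, 187 and 182 CPM in double-deficient, 102, 159, 156 and 160 CPM in Foxp3-deficient and 132, 146, 126 and 156 CPM in WT libraries, and Foxp3-deficient 1 lay far under the other 3 of its group. Its log2 fold changes were 0.37 ± 0.121 (edgeR adjusted p = 0.0344) and 0.41 ± 0.121 (adjusted p = 0.0172). Eif3k averaged 115 ± 7.83 CPM in double-deficient, 76 ± 22.8 in Foxp3-deficient and 86.4 ± 7.8 in WT cells, and rose against Foxp3-deficient cells at a log2 fold change of 0.59 ± 0.173 (edgeR adjusted p = 0.0215; against WT 0.41 ± 0.172, adjusted p = 0.0817). These calls leaned on single libraries against Foxp3-deficient cells for Eif3h, which lost its call without Foxp3-deficient 1 or double-deficient 3, 4 or 5 (0.24 to 0.43), and for Eif3k, which lost it without double-deficient 3. Against WT cells, Eif3h lost its call without WT 1 or 4, and Eif3i without WT 1, 3 or 4 or double-deficient 3, 4 or 5 (0.41 to 0.51).

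Eif3a, Eif3b and Eif3c, which encode the largest eIF3 subunits, did not pass the test. Eif3a averaged 208 ± 16.8 CPM in double-deficient, 236 ± 24.7 in Foxp3-deficient and 231 ± 12.9 in WT cells. Eif3b averaged 457 ± 20.7 CPM in double-deficient, 443 ± 16.1 in Foxp3-deficient and 430 ± 5.33 in WT cells. Eif3c averaged 288 ± 15.2 CPM in double-deficient, 281 ± 26.5 in Foxp3-deficient and 286 ± 16.7 in WT cells. Within a library, the ratio of Eif3e to Eif3b CPM was 0.695 ± 0.107 in double-deficient, 0.402 ± 0.115 in Foxp3-deficient and 0.387 ± 0.0746 in WT cells, and that of Eif3m to Eif3b was 0.43 ± 0.0692 in double-deficient, 0.242 ± 0.0815 in Foxp3-deficient and 0.255 ± 0.0495 in WT cells. The ratio of Eif3a to Eif3b ran the other way, at 0.454 ± 0.0306 in double-deficient, 0.531 ± 0.0404 in Foxp3-deficient and 0.537 ± 0.0264 in WT cells. These 3 ratios were chosen after the values were seen. The transcripts differ in length (1506 bases for Eif3e, 1283 for Eif3m, 2945 for Eif3b and 5125 for Eif3a). Fold changes of all genes varied with length, as given below, and its part in these ratios was not tested. The summed level of the 14 eIF3 genes was 2590 ± 83 CPM in double-deficient, 2150 ± 206 in Foxp3-deficient and 2150 ± 142 in WT cells.

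Of the 11 genes of eIF4F, its helpers and relatives, 1 rose and 2 fell against Foxp3-deficient cells. Of all genes, 13.9% rose and 13.3% fell. Eif4g1, the gene of the main scaffold between eIF4E, eIF4A and eIF3, had 213, 208, 210 and 190 CPM in double-deficient, 299, 245, 268 and 245 CPM in Foxp3-deficient and 243, 244, 229 and 228 CPM in WT libraries, so the double-deficient libraries were lowest. It fell by 0.37 ± 0.0778 on the log2 scale against Foxp3-deficient cells (edgeR adjusted p = 0.00424), and its log2 fold change against WT cells was -0.20 ± 0.0778 (adjusted p = 0.0565). Eif4g3, its paralogue, had 162, 153, 162 and 122 CPM in double-deficient, 265, 175, 212 and 174 CPM in Foxp3-deficient and 201, 191, 199 and 165 CPM in WT libraries. It fell by 0.47 ± 0.13 against Foxp3-deficient cells (edgeR adjusted p = 0.0171), a call lost without Foxp3-deficient 1 or double-deficient 5 (-0.54 to -0.32). Eif4e, the cap-binding gene, averaged 71.8 ± 3.48 CPM in double-deficient, 59.5 ± 7.05 in Foxp3-deficient and 64.9 ± 3.86 in WT cells and rose against Foxp3-deficient cells by 0.27 ± 0.0937 (edgeR adjusted p = 0.0431). That call was lost in 11 of 19 alternative settings (adjusted p 0.0145 to 0.258), among them the removal of any Foxp3-deficient library but 5 and of double-deficient 2, 3 or 5. Against WT cells 0 of these 11 genes passed, where 15.8% of all genes rose and 16.8% fell. Eif4a1 and Eif4a2, closely related helicase genes between which reads can be misassigned, had a ratio of 0.314 ± 0.0206 in double-deficient, 0.331 ± 0.0451 in Foxp3-deficient and 0.423 ± 0.0591 in WT libraries. Neither was called.

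Of the 3 tested genes of proteins that bind eIF4E, 1 rose and 2 fell against WT cells, where 15.8% of all genes rose and 16.8% fell. Against Foxp3-deficient cells 1 rose and 0 fell, where 13.9% and 13.3% of all genes did. Eif4ebp1, the gene of the best-known 4E-binding repressor, had 12.3, 14, 14.7 and 16.6 CPM in double-deficient, 5.19, 9.69, 7.43 and 11.4 CPM in Foxp3-deficient and 8.22, 8.55, 8.07 and 11.6 CPM in WT libraries. The double-deficient libraries did not overlap the others, and its log2 fold changes were 0.77 ± 0.214 against Foxp3-deficient (edgeR adjusted p = 0.0171) and 0.65 ± 0.213 against WT cells (adjusted p = 0.0283). Eif4ebp2, its paralogue, averaged 19 ± 1.29 CPM in double-deficient, 22.7 ± 3.41 in Foxp3-deficient and 24.8 ± 1.74 in WT cells, and fell by 0.38 ± 0.125 against WT cells (adjusted p = 0.0294). The ratio of Eif4ebp1 to Eif4ebp2 was accordingly 0.759 ± 0.13 in double-deficient, 0.379 ± 0.142 in Foxp3-deficient and 0.371 ± 0.093 in WT libraries. All double-deficient libraries (0.661 to 0.947) were above the others (0.236 to 0.525). The ratio of the summed Eif4ebp genes to Eif4e was 0.467 ± 0.0359 in double-deficient, 0.526 ± 0.0257 in Foxp3-deficient and 0.525 ± 0.0253 in WT libraries. The transcripts differ in length (1997 bases for Eif4ebp1, 5784 for Eif4ebp2). With the length and GC trend removed, Eif4ebp2 was not called against WT cells (-0.12, edgeR adjusted p = 0.42), while Eif4ebp1 (0.66) and Eif4enif1 (-0.26) were. Eif4enif1, the gene of the eIF4E transporter, had 52.9, 59.4, 52.3 and 54.3 CPM in double-deficient, 66.9, 48.4, 61.6 and 62.9 CPM in Foxp3-deficient and 71.3, 65.5, 80 and 71 CPM in WT libraries, and fell by 0.39 ± 0.104 against WT cells (edgeR adjusted p = 0.0096). Eif4ebp3 had 0 reads in all 4 double-deficient libraries, between 0 and 5 in Foxp3-deficient and between 1 and 4 in WT, and was not tested. Eif4ebp1 lost its call against Foxp3-deficient cells without Foxp3-deficient 4 or double-deficient 5 (0.59 to 0.96) and against WT cells without WT 1, 3 or 4 or double-deficient 4 or 5 (0.58 to 0.79), and Eif4ebp2 lost its own without WT 1, 3 or 4 or double-deficient 2, 4 or 5 (-0.42 to -0.34).

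Among the start-codon scanning and joining factors, Eif1a stood out. It encodes an eIF1A protein that promotes scanning and has a near-identical X-linked copy, Eif1ax. Eif1a had 137, 146, 148 and 169 CPM in double-deficient, 77.5, 99.8, 80 and 102 CPM in Foxp3-deficient and 90.4, 87.5, 89 and 113 CPM in WT libraries. No double-deficient library overlapped the others, and the log2 fold changes were 0.74 ± 0.112 against Foxp3-deficient (edgeR adjusted p = 0.00052) and 0.66 ± 0.112 against WT cells (adjusted p = 0.000464), while reads of the 2 copies could be divided between them. Eif1ax averaged 92.8 ± 3.27 CPM in double-deficient, 70.8 ± 12.9 in Foxp3-deficient and 78.7 ± 8.63 in WT cells, and rose against Foxp3-deficient cells by 0.39 ± 0.117 (edgeR adjusted p = 0.0236), a call lost without Foxp3-deficient 1 or 4 or double-deficient 3 (0.29 to 0.51). Eif5, the gene of the GTPase activator of eIF2, had 660, 607, 601 and 617 CPM in double-deficient, 557, 624, 626 and 612 CPM in Foxp3-deficient and 497, 556, 521 and 542 CPM in WT libraries, with WT libraries lowest. It rose against WT cells by 0.23 ± 0.0694 (edgeR adjusted p = 0.019), a call lost without WT 1 or 4 or double-deficient 2 (0.20 to 0.25).

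Eif5a and Eif6 rose in both comparisons. Eif5a encodes the hypusinated factor that helps ribosomes through elongation and termination, and had 946, 1060, 1010 and 1040 CPM in double-deficient, 562, 846, 823 and 811 CPM in Foxp3-deficient and 855, 796, 822 and 854 CPM in WT libraries. Foxp3-deficient 1 was far under the other 3 of its group, and the log2 fold changes were 0.42 ± 0.106 against Foxp3-deficient (edgeR adjusted p = 0.0111) and 0.29 ± 0.106 against WT cells (adjusted p = 0.0488). The second of these lost its call without any 1 of the 8 libraries compared (0.26 to 0.32). Eif6, the gene of the factor that keeps the large ribosomal subunit from joining early, had 193, 206, 207 and 201 CPM in double-deficient, 113, 168, 164 and 168 CPM in Foxp3-deficient and 141, 140, 145 and 139 CPM in WT libraries. All double-deficient libraries were above the others, with log2 fold changes of 0.39 ± 0.104 (edgeR adjusted p = 0.0133) and 0.51 ± 0.104 (adjusted p = 0.00187).

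**Figure D3:**
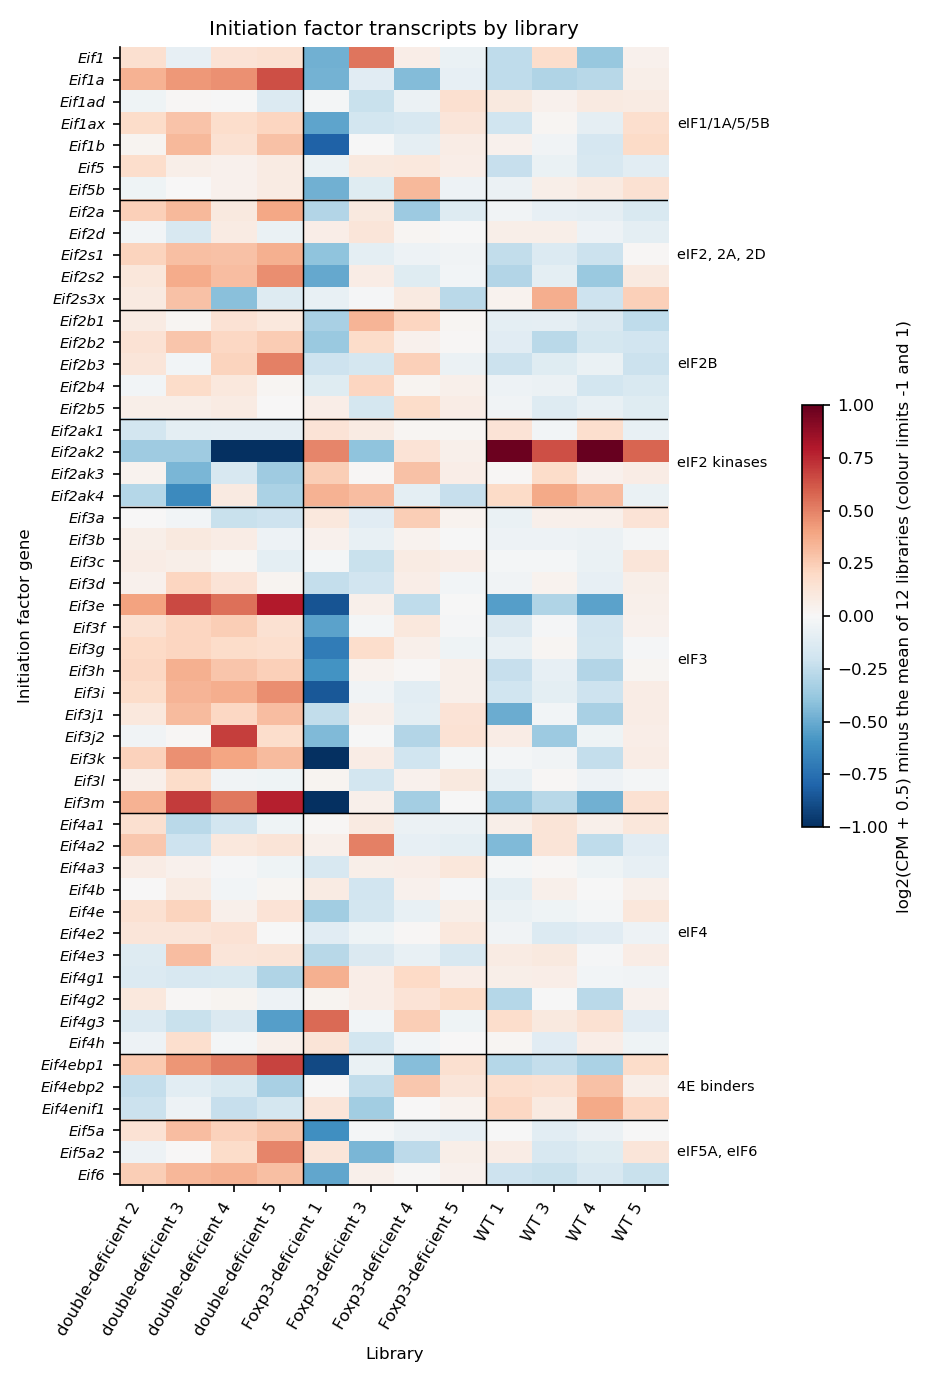
log2(CPM + 0.5) of the 52 tested initiation factor genes (rows, grouped by complex) in each library (columns, double-deficient, Foxp3-deficient and WT from the left), as the difference from the gene's mean over 12 libraries, with colours limited at -1 and 1. Eif3e, Eif3m, Eif1a and Eif4ebp1 are red in the 4 double-deficient columns, Eif2ak2 is blue there, and Foxp3-deficient 1 differs from the other columns of its group.

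In Foxp3-deficient against WT cells, 0 of the 52 members rose and 0 fell by edgeR, where 6.99% of all genes rose, 6.74% fell and 13.7% were called either way. At an unadjusted p under 0.05 there were 4 members, DESeq2 called 1 higher and 1 lower, and limma-voom 0 higher and 1 lower. The median log2 fold change of the members was -0.01, with 26 positive and 26 negative, and for 4 members (7.69%, against 17.8% of all genes) the groups did not overlap. Nearest to the threshold were Eif2ak2 (-0.72 ± 0.251, adjusted p = 0.0732), Eif5 (0.19 ± 0.0694, adjusted p = 0.0809) and Eif4g2 (0.23 ± 0.0847, adjusted p = 0.0897), the gene of an eIF4G relative used in cap-independent initiation. Eif2ak2 passed in 5 of 19 alternative settings, and its log2 fold change over all 19 ran from -0.87 to -0.58. Without Foxp3-deficient 1, which stood apart from its group in the heat map, 4 members were called higher and 1 lower. For these other fits the share of all genes called is not given.

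Fold changes of the members varied with transcript length, as did those of all genes. Across the members, Spearman's rho between length and log2 fold change was -0.506 in double-deficient against Foxp3-deficient and -0.542 in double-deficient against WT cells, and across 13074 genes it was -0.346 and -0.232 (genes of 1 fit share libraries and are not independent replicates). In the class of transcripts under 1520 bases, 7 of 11 members rose against Foxp3-deficient cells, where 26% of all genes of that class rose, and 6 of 11 rose against WT cells, where 18.2% did. In the class over 4653 bases, 2 of 11 members rose and 2 fell against Foxp3-deficient cells, where 5.32% of all genes rose and 32.6% fell. Eif3e (1506 bases), Eif3m (1283) and Eif6 (1500) belong to the short class, and Eif1a (2865), Eif2s1 (3405) and Eif2ak2 (4313) to longer ones. The double-deficient libraries also had the lowest share of reads outside genes, 4.63% to 5.47%, against 6.22% to 9.27% in Foxp3-deficient and 7.52% to 8.75% in WT libraries.

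**Figure D4:**
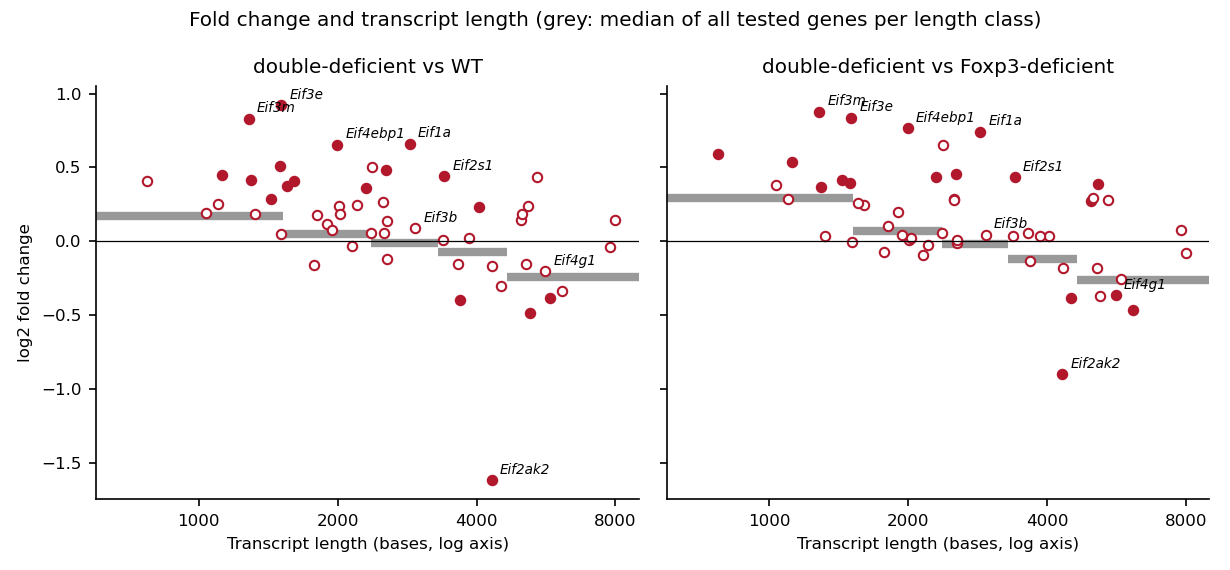
Log2 fold change (y axis) of the 52 tested initiation factor genes against the length of the principal transcript (x axis, log scale), for double-deficient against WT and double-deficient against Foxp3-deficient cells. Filled points passed an adjusted p under 0.05, and grey bars give the median of all tested genes in 5 length classes (the outer classes run past the axis), which lies at 0.29 for the shortest and -0.26 for the longest class against Foxp3-deficient cells.

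With each library's trend on length and GC content removed, 11 members rose and 1 fell in double-deficient against Foxp3-deficient cells, where 10.2% of all genes rose and 8.62% fell. Against WT cells, 15 rose and 2 fell, where 18.9% of all genes rose and 13.2% fell. The fall of the scaffolds did not hold: Eif4g1 had a log2 fold change of -0.11 (adjusted p = 0.194) and Eif4g3 of -0.20 (adjusted p = 0.154) against Foxp3-deficient cells. Eif2a, Eif2s2, Eif3h and Eif2ak3 lost their calls in that comparison, with log2 fold changes of 0.26, 0.28, 0.15 and -0.23 in that order. Against WT cells the call was lost for Eif2a (0.25, adjusted p = 0.0788), Eif2b3 (0.31, adjusted p = 0.0507), Eif2ak4 (-0.25, adjusted p = 0.282) and Eif4ebp2 (-0.12, adjusted p = 0.42). Some calls held at a smaller size against Foxp3-deficient cells, where Eif3e had a log2 fold change of 0.50, Eif3m of 0.56, Eif3i of 0.30, Eif3k of 0.32 and Eif5a of 0.26 with the trend removed. Newly called against WT cells were Eif3f, Eif3j1 and Eif4g2 at log2 fold changes of 0.32, 0.52 and 0.36. Eif1a, Eif2s1, Eif3e and Eif3m were called in both comparisons, and Eif2ak2, Eif2b2 and Eif6 against WT cells, under all 19 alternative settings of the comparison. In Foxp3-deficient against WT cells 4 members (Eif2b1, Eif2b2, Eif4g2 and Eif5) rose and 0 fell with the trend removed, where 10.3% of all genes rose and 6.68% fell. What part transcript length, library quality or genotype has in these values was not tested.

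**Figure D5:**
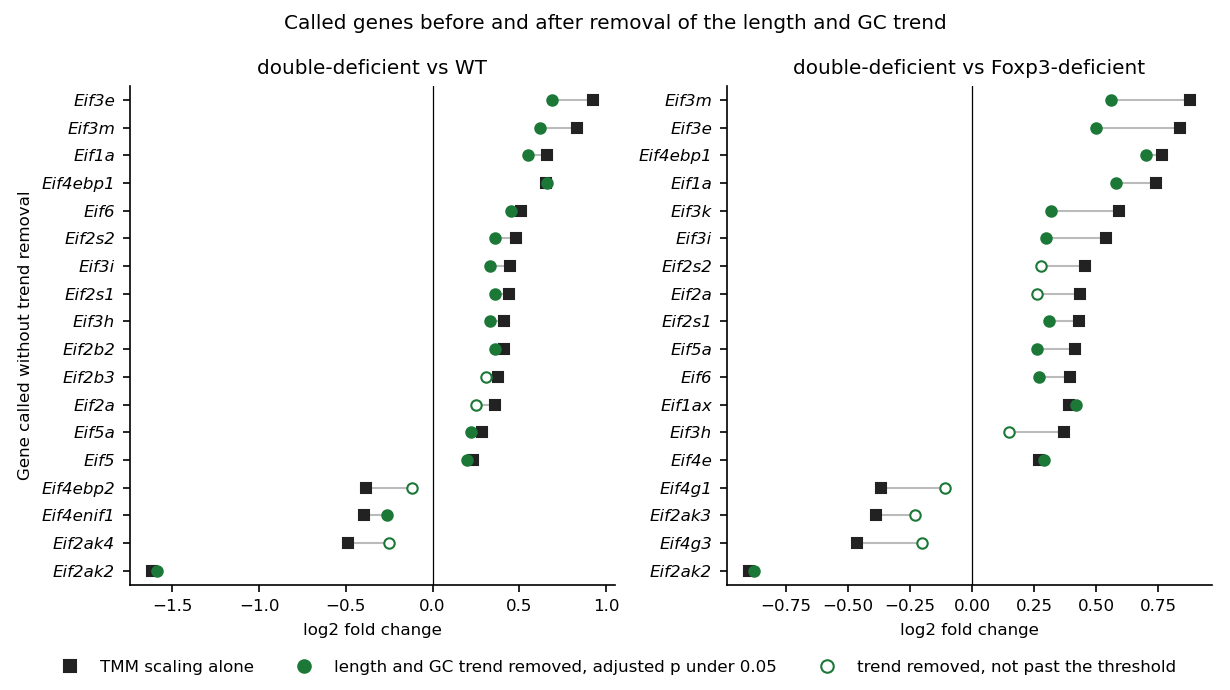
Log2 fold change (x axis) of the 18 called initiation factor genes in each comparison (y axis), for double-deficient against WT and double-deficient against Foxp3-deficient cells, with TMM scaling alone (black squares) and after each library's length and GC trend was removed (green circles, filled where the adjusted p stayed under 0.05). Eif2ak2 keeps nearly the same place, and Eif4g1 and Eif4g3 move toward 0.

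Other genes of the translation pathway, of which 35 of 36 were tested, rose in 8 and fell in 4 members in double-deficient against Foxp3-deficient cells, and rose in 11 and fell in 5 against WT cells. That is 22.9% higher and 11.4% lower against Foxp3-deficient cells, where 13.9% and 13.3% of all genes were, and 31.4% higher and 14.3% lower against WT cells, where 15.8% and 16.8% were. Of the 7 genes listed under elongation by their symbols, Eef1e1 and the kinase gene Eef2k among them, 4 rose and 0 fell in both comparisons. Eef1b2, a subunit gene of the exchange factor of elongation factor eEF1A, had log2 fold changes of 0.69 ± 0.166 against Foxp3-deficient (edgeR adjusted p = 0.0086) and 0.51 ± 0.165 against WT cells (adjusted p = 0.0271). Eef1a1 averaged 1100 ± 37.7 CPM in double-deficient, 868 ± 131 in Foxp3-deficient and 829 ± 85.8 in WT cells, and rose in both comparisons, though with the length and GC trend removed it was not called against Foxp3-deficient cells (0.22, adjusted p = 0.0794). Eef2, the translocase gene, averaged 1440 ± 92.3 CPM in double-deficient, 1230 ± 105 in Foxp3-deficient and 1060 ± 58.7 in WT cells and also rose in both. Among partners at initiation, Paip2, the gene of a repressor of poly(A)-binding protein, averaged 461 ± 41.8 CPM in double-deficient, 293 ± 70.2 in Foxp3-deficient and 305 ± 31.8 in WT cells (log2 fold changes 0.66 ± 0.141, edgeR adjusted p = 0.00479, and 0.59 ± 0.141, adjusted p = 0.00545). Mcts1, whose product acts with DENR on post-termination ribosomes, and Eef1e1 rose against Foxp3-deficient cells by 0.96 ± 0.222 and 0.84 ± 0.209 (adjusted p = 0.00763 and 0.0104), and Mtif3, a mitochondrial initiation factor gene, rose in both comparisons (0.39 ± 0.0984 and 0.44 ± 0.0984). 

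Among the regulators, Mtor averaged 35 ± 4.44 CPM in double-deficient, 54.7 ± 12 in Foxp3-deficient and 51.4 ± 5.65 in WT cells, and fell by 0.64 ± 0.145 against Foxp3-deficient (edgeR adjusted p = 0.00575) and by 0.55 ± 0.144 against WT cells (adjusted p = 0.00898). With the trend removed, Mtor was called in neither comparison, and 0 of the other translation genes fell against Foxp3-deficient cells. Cyfip1, whose product binds eIF4E and is also part of an actin-regulating complex, averaged 81.9 ± 11 CPM in double-deficient, 89.9 ± 22 in Foxp3-deficient and 159 ± 18.2 in WT cells. It fell against WT in double-deficient cells by 0.95 ± 0.148 (edgeR adjusted p = 0.000249) and in Foxp3-deficient cells by 0.82 ± 0.148 (adjusted p = 0.00121), 2 comparisons that share the WT libraries. In Foxp3-deficient against WT cells Pdcd4, the gene of an eIF4A inhibitor, also fell, by 0.42 ± 0.0978 (adjusted p = 0.00831), and Mknk1, the gene of a kinase of eIF4E, rose by 0.29 ± 0.0789 (adjusted p = 0.0222). Atf4, the transcription factor gene whose translation rises when eIF2α is phosphorylated, ranged from 237 to 332 CPM in double-deficient, 131 to 478 in Foxp3-deficient and 109 to 223 CPM in WT libraries and was called in none of the 3 comparisons.

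Markers of other cells and of the cell cycle moved beside these values. The summed level of the 7 B cell markers was 788 to 955 CPM in double-deficient, 677 to 846 in Foxp3-deficient and 1350 to 1590 CPM in WT libraries. Most of it was Ighm, and Ms4a1 was under 1 CPM on average in every group. Cd74 averaged 14.7, 11.3 and 101 CPM and Cd79b 15.8, 8.48 and 21.3 CPM in the same order of groups. Of the 5 tested, 4 fell against WT in each of the other groups. Of all genes, 16.8% fell in double-deficient and 6.74% in Foxp3-deficient cells. In double-deficient against Foxp3-deficient cells 2 of the 5 rose, where 13.9% of all genes rose. The 10 proliferation genes summed to 362 to 460 CPM in double-deficient, 310 to 500 in Foxp3-deficient and 273 to 308 CPM in WT libraries. Against WT, 5 of the 10 rose in each of the other groups, where 15.8% of all genes rose in double-deficient and 6.99% in Foxp3-deficient cells. The summed CPM of all initiation factor genes was 9659 to 9886 in double-deficient, 8244 to 9350 in Foxp3-deficient and 8297 to 9089 in WT libraries, so that the double-deficient libraries were highest. The 2 CD8 T cell markers summed to 24.8 to 27.5 CPM in double-deficient, 14.5 to 20.6 in Foxp3-deficient and 17.2 to 21.2 CPM in WT libraries, nearly all of it Cd8b1, with Cd8a under 1 CPM on average in every group. In each double-deficient comparison 1 of the 2 rose, where 13.9% of all genes rose against Foxp3-deficient and 15.8% against WT cells. The part of these markers in the initiation factor values was not tested.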

How the data were processed

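The authors deposited raw counts per gene for 12 libraries. Per the labels, the SMART-Seq v4 kit produced the cDNA, and STAR 2.5.1b (alignment to GRCm38, mm10) and HTSeq (counting) are named, per the submitters' processing notes. The strand setting, like the HTSeq version and Gencode release, is not given in the sources used here, so genes that overlap on opposite strands and near-identical copies are uncertain. After low-count filtering with filterByExpr (13196 genes left) and TMM scaling, 1 robust quasi-likelihood model without covariates was fitted to the 12 libraries in edgeR 4.0.16 (R 4.3.3), with p-values adjusted by Benjamini-Hochberg over all tested genes. The standard error is the log2 fold change divided by the square root of F. The common dispersion corresponded to a biological coefficient of variation of 17.4%. CPM were computed from TMM-scaled totals. Transcript lengths, GC content and positions came from GENCODE M21 (GRCm38), which matched 97.5% of genes, and 1 principal transcript stood for each gene.

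Reads of HTSeq summary rows stayed out of totals and tests. They were 31.1% to 33.1% (no unique alignment) in double-deficient and 23% to 29.5% in the other libraries. No library was a copy of another. Every called member was named, up to 12 per comparison with full values, by the smallest adjusted p, and other translation genes up to 6. The members, lists and motifs were chosen with earlier results of these data known. Eif2ak1, Eif3a, Eif3b, Eif3c, Eif3f, Eif3j1, Eif4a1, Eif4a2, Eif2b1, Eif4g2 and Atf4 were named outside the rule after their values were seen. Alternatives were other scalings and filters, DESeq2 1.42.0, limma-voom 3.58.1, only the groups compared, the replicate block, removal of each library's length and GC trend (splines of 5 degrees of freedom), and leaving libraries out. The level of 1 marker gene is not reported here.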

Additional observations from a re-analysis of the deposited data

Results flagged for a closer look

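In 5 of 72 groups of 4 libraries examined for 24 named genes, 1 library lay far from the other 3, and chance gives about 1 such group in 20. Eif3h had 102 CPM in Foxp3-deficient 1, against 156 to 160 in the other Foxp3-deficient libraries. Eif5a had 562 CPM there, against 811 to 846, and Eif6 had 113 CPM, against 164 to 168. In WT 5, Eif1a had 113 CPM, against 87.5 to 90.4 in the other WT libraries, and Eif4ebp1 had 11.6 CPM, against 8.07 to 8.55.

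A pseudogene row left out of the members also differed between groups. Eif3s6-ps2, a processed pseudogene of Eif3e on chromosome 18, had 279 reads in the double-deficient libraries (24, 32, 101 and 122), 12 in the Foxp3-deficient libraries and 13 in the WT libraries, a difference that was not tested.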

How the results depend on the processing

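No named initiation factor gene changed sign in a comparison in which it was called. Uncalled values near 0 did change sign, among them, with the trend removed, Eif4g1 (-0.20 to 0.04) and Eif2ak1 (-0.17 to 0.01) in double-deficient against WT cells. Of the other translation genes, Gcn1l1 was called lower in double-deficient against Foxp3-deficient cells (-0.37) and stood at 0.01 with the trend removed, and at 0.28, called higher, against WT cells (-0.10 without). Counts of initiation factor genes that moved by over 1.5 times are given as higher and lower. Shares of all genes are given above for trend removal only. Under the other settings, the counts here and below therefore do not show whether the members moved more than other genes. In Foxp3-deficient against WT cells, where edgeR called 0, DESeq2 called 1 higher and 1 lower, limma-voom 1 lower, a fit of only the 2 groups 1 lower, and removal of the length and GC trend 4 higher. In double-deficient against Foxp3-deficient cells (14 and 4), trend removal left 1 lower. In double-deficient against WT cells (14 and 4), the stricter filter and the fit of 2 groups each gave 7 lower and trend removal 2 lower. Without both Foxp3-deficient 1 and 3 there were 2 higher in Foxp3-deficient against WT, 9 higher in double-deficient against Foxp3-deficient, and 22 higher and 7 lower in double-deficient against WT cells.

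Leaving out 1 library at a time gave 0 to 4 higher and 0 to 1 lower, 9 to 15 higher and 1 to 6 lower, and 6 to 12 higher and 2 to 5 lower in the same order of comparisons. For the other translation genes the ranges were 0 to 3 and 2 to 3, 6 to 11 and 1 to 4, and 5 to 12 and 3 to 5.

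The other translation genes (1 and 2, 8 and 4, 11 and 5) moved as follows. In Foxp3-deficient against WT cells 0 were higher with no filter or in the fit of 2 groups, 4 with DESeq2, 2 with limma-voom and 3 with the trend removed. In double-deficient against Foxp3-deficient cells 2 were lower with relative log expression scaling, upper quartile scaling, no filter or the fit of 2 groups, and 0 with the trend removed. In double-deficient against WT cells 7 were higher with no filter and 3 lower with the trend removed.

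Same-numbered libraries deviated from their group means with correlations of 0.157, 0.102, 0.0289 and 0.203 between Foxp3-deficient and WT cells, and of -0.0524 to 0.0622 in pairs with double-deficient cells, so that not every pair exceeded 0.1 and the numbers were not taken to pair the samples. With the replicate block, 13 initiation factor genes were higher and 4 lower in double-deficient against Foxp3-deficient cells, 10 and 3 in double-deficient against WT cells, and 0 and 0 in Foxp3-deficient against WT cells, and 5 other translation genes were higher in double-deficient against Foxp3-deficient cells. For the block with the trend removed, only counts that moved by over 1.5 times are given. They were 2 higher and 1 lower in Foxp3-deficient against WT cells, 7 and 1 in double-deficient against Foxp3-deficient cells, and 1 lower in double-deficient against WT cells. In the last of these, Eif1a, Eif2b2, Eif2s1, Eif2s2, Eif3e, Eif3h, Eif3i, Eif3m, Eif4ebp1 and Eif6 were still called higher. Among the other translation genes the counts were 2 higher, 0 lower and 2 lower in the same order of comparisons. Other scalings moved the median of all genes by under 0.1 on the log2 scale. With 4 libraries a group, the depth left low genes such as Eif4ebp3 and Eif3j2 uncertain.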
